A study of Mus musculus with 6 samples.

Results

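The kelch and BTB adaptor genes of cullin 3 were taken as every gene whose symbol in the platform annotation begins with Klhl or Kbtbd and a digit, plus Cul3 and Rbx1, which gave 45 of the 19505 genes measured. They comprise 34 Klhl genes, 9 Kbtbd genes and the 2 core genes. Each had a single probe set, so the rule's choice of the probe set with the highest mean signal altered no member. The family was picked with the results of this comparison already known, among them the rises of Klhl6 and Kbtbd11. The changes below therefore describe the family and are no independent evidence about it.

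RAW264.7 cells, which are macrophage-like cells of a mouse line, gave the RNA for the arrays after 3 days on a modified PEEK surface (3 arrays) or on pristine PEEK (3 arrays). PEEK, polyetheretherketone, is a polymer used for bone implants, and what was done to modify it is not given in the labels. Both groups are the same unmodified cell line in the same medium, and whether the 3 samples were separate cultures is not stated, so a p-value here reflects the scatter of these samples, which may be technical. Signals are log2 values, and a gene counts as changed, or called, at a limma adjusted p under 0.05 over all genes. Background was 3.72, the 95th percentile over 1412 genes for odorant and vomeronasal receptors, which macrophages hardly use.

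Cullin 3 is the scaffold of a family of ubiquitin ligases. Rbx1 is the RING subunit that recruits the ubiquitin-charged enzyme, and a BTB protein binds the other end of the scaffold. In most members the BTB domain is followed by a BACK domain and by kelch repeats, a propeller that holds the substrate, so that each adaptor directs the same ligase to other proteins. The best known relative is Keap1, which holds the oxidative stress factor NRF2 at a low level.

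Correlations over all genes were 0.991 to 0.995 between arrays of a surface and 0.985 to 0.988 between surfaces, and no array stood apart. Of 10 macrophage markers measured, 8, including Csf1r, Ptprc, Spi1 and Lyz2, lay above background on all 6 arrays. Mertk lay below it on all 6, and Aif1 lay above it on 3. Of the 10, 5 were called (50%, beside 10.4% of all genes): Aif1 (1.06), Adgre1 (0.54) and Mertk (0.36) were higher on modified PEEK, and Fcgr1 (-0.85) and Itgam (-0.59) were lower. Their part in the members' changes was not tested. The linear signals of these markers summed to 14408 to 14491 on modified and 14342 to 14667 on pristine PEEK. None of 16 markers of other cell types was called. Of the 16, 9 lay below background on all 6 arrays and 2 lay above it on some. The other 5, Col1a1, Col1a2, Krt8, Cdh1 and Cd4, lay above it on all 6. The summed signal of the 16 was 209 to 291 on modified and 220.0 to 256 on pristine PEEK. The poly-A spike probe sets averaged 6.71 ± 0.14 on modified and 6.96 ± 0.15 on pristine PEEK (SD, n = 3). With arrays scaled to these spikes the median change of all genes moved by 0.25 on the log2 scale.

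On modified PEEK 5 members were higher and 3 lower, which is 8 of 45 (17.8%), beside 10.4% of all genes tested. The background by direction was 5.24% higher and 5.15% lower. With arrays scaled to the spikes, 7 members were higher and 0 lower by limma (also 0 lower at an unadjusted p under 0.05), and over all genes 1575 were higher and 290 lower, so the 3 lower calls do not hold under that scaling. Klhl6, Kbtbd11 and Klhl33 rose most, Klhl9 and Klhl5 rose by about as much as Klhl12, Klhl26 and Klhl22 fell, and the core genes Cul3 and Rbx1 were not called. The median change was 0.06 over the 45 members and 0.01 over all genes. In RNA from a whole culture, a change in the share of cells using a gene cannot be told apart from a change in each cell. The count fell to 5 (11.1% of members, beside 9.55% of all genes) without modified PEEK replicate 1. Without modified PEEK replicate 2 it was 7 (15.6%, beside 8.53%). It was 3 (6.67% of members) without modified PEEK replicate 3 or without pristine PEEK replicate 1, 2 or 3, where 5.85% to 6.66% of all genes passed. Signals of 2 adaptors come from different probes, so their levels are not ranked here.

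**Figure D1:**
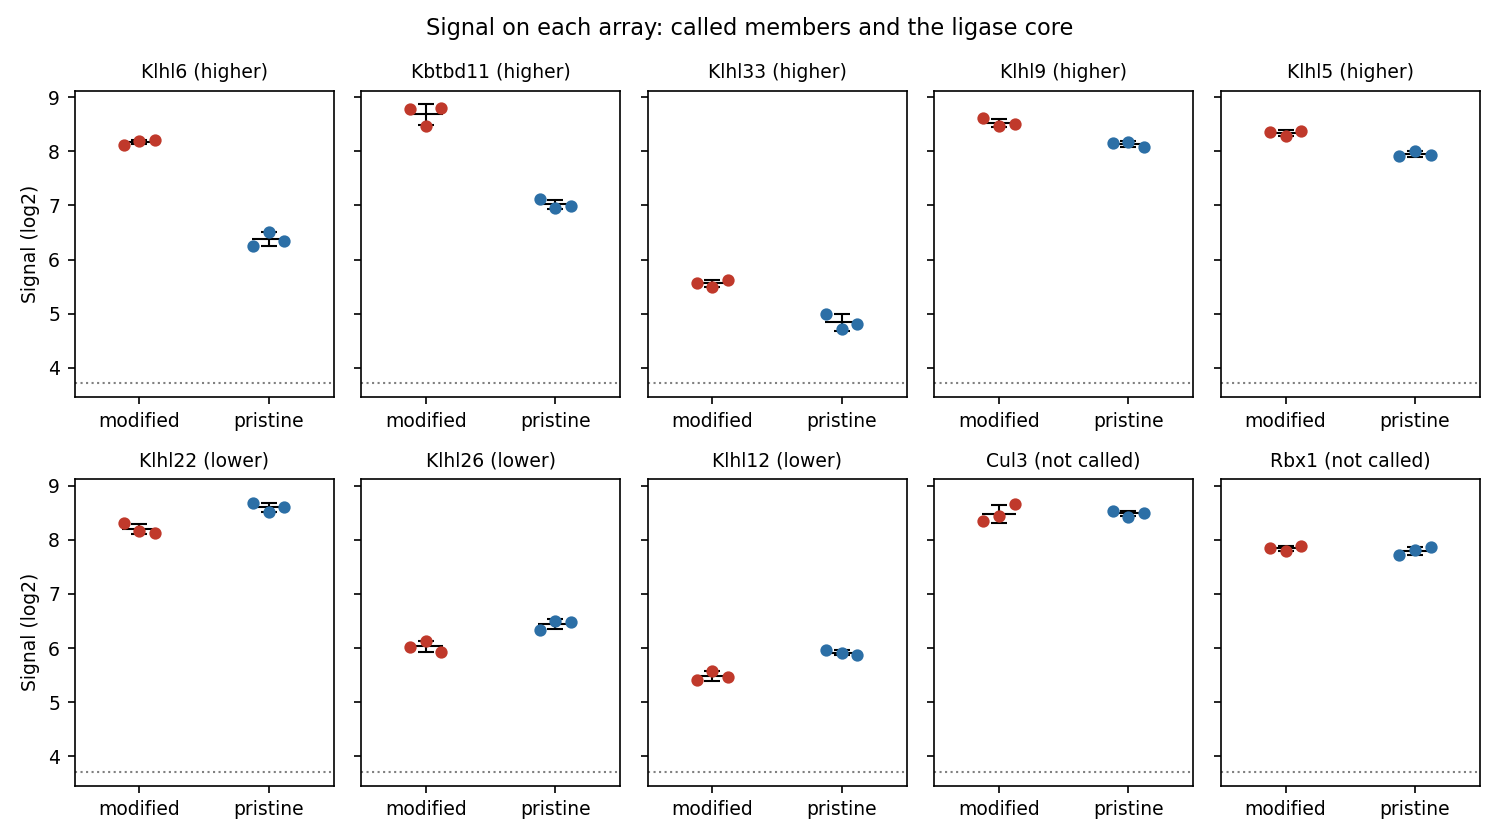
Log2 signal on each array (points) for the 8 called members and the 2 core genes, modified PEEK left and pristine PEEK right, with the mean and SD of 3 arrays (black) and the background (dotted). The groups do not overlap for the called members and do for Cul3 and Rbx1.

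The core genes showed no difference between the surfaces larger than the spread of the arrays. Cul3, the scaffold, had signals of 8.34, 8.44 and 8.67 on modified PEEK and 8.53, 8.43 and 8.50 on pristine PEEK. Its change was 0.00 on the log2 scale, with a 95% interval from -0.26 to 0.25 (limma adjusted p = 0.994). Rbx1 had 7.85, 7.79 and 7.88 on modified PEEK and 7.71, 7.81 and 7.86 on pristine PEEK. Its change was 0.05, with an interval from -0.16 to 0.26 (limma adjusted p = 0.825). The groups overlapped for both genes, and the intervals leave room for differences of up to 0.26 on the log2 scale. Scaled to the spikes, the change was 0.25 for Cul3 and 0.30 for Rbx1, close to that of the median gene.

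Klhl6 is known as a lymphoid adaptor, needed in mice for B cells to form germinal centres, and it gave the largest rise of the family. Its signals were 8.12, 8.19 and 8.20 on modified PEEK, against 6.26, 6.51 and 6.35 on pristine PEEK. The lowest array on modified PEEK was 1.61 above the highest on pristine PEEK. The change of 1.80 ± 0.10 (SE) corresponds to 3.48-fold (limma adjusted p = 8.20e-05), higher on 3 of 3 arrays, and only 6 of all genes rose more. Of the B cell markers, Ms4a1 lay below background on all 6 arrays, and Cd79a lay above it on 5 of the 6. Cd79a averaged 3.73 ± 0.36 on modified and 3.86 ± 0.15 on pristine PEEK (SD, n = 3; limma adjusted p = 0.767).

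Kbtbd11, described in mice as restraining the formation of osteoclasts, rose 3.16-fold. It had 8.78, 8.47 and 8.79 on modified PEEK, against 7.11, 6.96 and 6.99 on pristine PEEK. The groups were separated by 1.35 on the log2 scale. The change was 1.66 ± 0.12 (SE; limma adjusted p = 0.000218), with 10 genes in all rising more. These 2 genes were the only members with a change of at least 2-fold.

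Klhl33, whose role is little described, rose 1.65-fold. Its signals were 5.57, 5.49 and 5.62 on modified PEEK and 5.00, 4.71 and 4.81 on pristine PEEK. All arrays lay above background and the groups were separated by 0.49. The change was 0.72 ± 0.11 (SE; limma adjusted p = 0.00407), and 411 genes rose more. Under scaling to the spikes the changes were 2.05 for Klhl6, 1.91 for Kbtbd11 and 0.97 for Klhl33. All 3 were called in all 15 alternative analyses, with the highest adjusted p for Klhl33, 0.0247, reached without modified PEEK replicate 3.

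**Figure D2:**
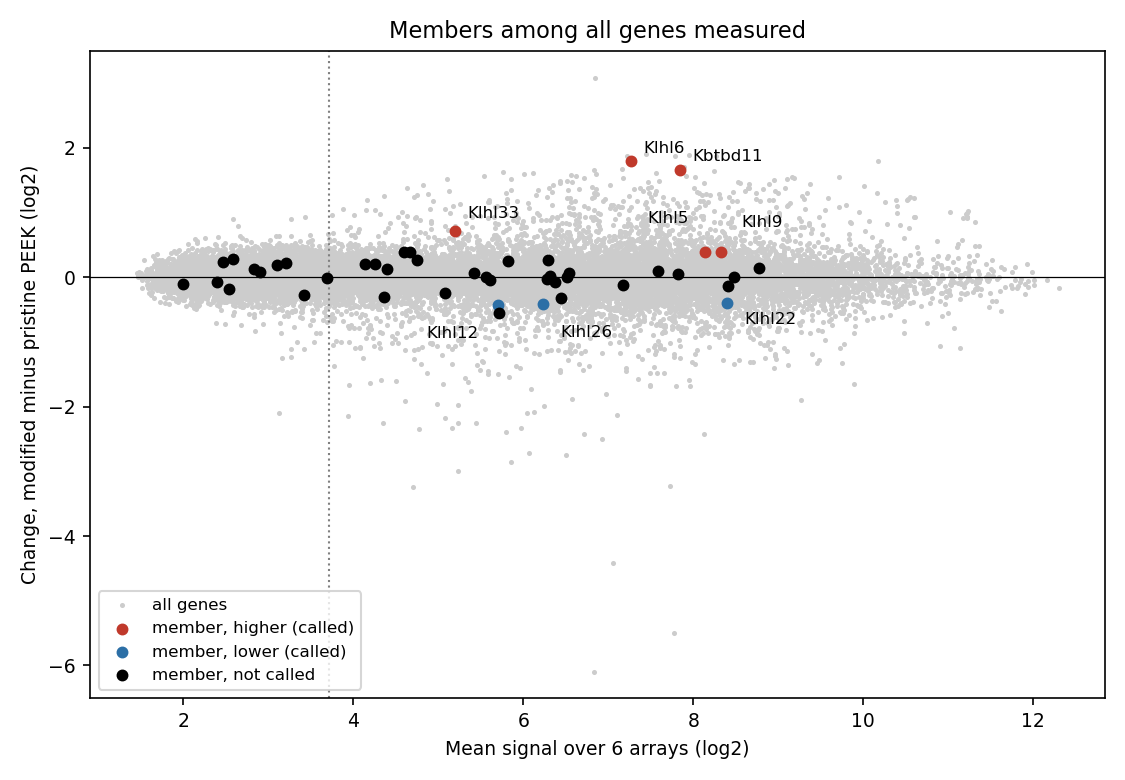
Change between surfaces (modified minus pristine PEEK, log2, vertical) against the mean signal over 6 arrays (log2, horizontal) for 19505 genes (grey) and the 45 members (coloured by call), with the background dotted. Klhl6 and Kbtbd11 lie at the upper edge of all genes, while the other members lie between -0.55 and 0.72.

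Of 8 members with a part in cell division or the cytoskeleton 1 was higher and 1 lower, with a median change of -0.01, beside 5.24% of all genes higher and 5.15% lower. Both calls were lost in 5 of the 6 fits with 1 array left out. Klhl9, which in human cells works with Klhl13 and cullin 3 on the mitotic kinase Aurora B, had 8.61, 8.46 and 8.50 on modified PEEK and 8.16, 8.16 and 8.07 on pristine PEEK. It rose by 0.39 ± 0.09 (SE; 1.31-fold, limma adjusted p = 0.0321), and by 0.64 when scaled to the spikes. Its partner Klhl13 had signals near background, 3.28 ± 0.15 on modified and 3.56 ± 0.27 on pristine PEEK (SD, n = 3), and was not called. Klhl22, which in human cells acts on the mitotic kinase PLK1 and on DEPDC5, an inhibitor of mTORC1 signalling, went the other way. It had 8.30, 8.17 and 8.13 on modified PEEK, against 8.68, 8.52 and 8.61 on pristine PEEK. It fell by 0.40 on the log2 scale (SE 0.10; limma adjusted p = 0.0362), and the groups did not overlap. Its change was -0.15 when scaled to the spikes, and it did not pass there (adjusted p = 0.528).

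The other 5 genes with such roles were not called. Klhl18, an adaptor for Aurora A, changed by -0.03 and Klhl42, an adaptor for the microtubule-severing katanin, by 0.01. Klhl21, which acts on Aurora B, changed by -0.24 (limma adjusted p = 0.441). Kbtbd6 and Kbtbd7, neighbouring genes that together direct breakdown of the Rac activator TIAM1, changed by 0.21 and 0.39. Kbtbd7 had 4.91, 4.64 and 5.04 on modified PEEK and 4.41, 4.67 and 4.35 on pristine PEEK. The middle pristine value exceeded the lowest modified one, and the gene did not pass (limma adjusted p = 0.127) except when arrays were scaled to the spikes (adjusted p = 0.0274).

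Of 9 members acting in signalling, trafficking or metabolism 1 was lower and 0 were higher (11.1% called, beside 10.4% of all genes). Their median change was 0.00. The lower one was Klhl12, known for adding ubiquitin to the coat protein SEC31 in the export of collagen and for acting on Dishevelled in Wnt signalling. It had 5.40, 5.59 and 5.47 on modified PEEK, against 5.96, 5.90 and 5.87 on pristine PEEK. It fell by 0.43 (SE 0.09; 1.34-fold lower, limma adjusted p = 0.0243), and the groups were separated by 0.28. Scaled to the spikes its change was -0.18 and it did not pass (adjusted p = 0.485).

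Klhl24 and Kbtbd2 of the same set were not called. Klhl24, an adaptor for keratin 14 in skin, had 8.85, 8.80 and 8.89 on modified PEEK and 8.78, 8.67 and 8.65 on pristine PEEK. Its groups did not overlap, yet the change of 0.15 did not pass (limma adjusted p = 0.404). Kbtbd2, which in mice limits the p85 subunit of PI 3-kinase and so maintains insulin signalling, had 8.27, 8.28 and 8.49 on modified PEEK and 8.46, 8.37 and 8.61 on pristine PEEK. The groups overlapped and the change was -0.13 (limma adjusted p = 0.554).

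The remaining 6 changed by -0.12 to 0.25 and none was called. They were Klhl2 (WNK kinases), Klhl7, Klhl20 (DAPK1 and PML), Klhl25 (4E-BP1 and ATP citrate lyase), Kbtbd4 (the CoREST complex) and Kbtbd8. Kbtbd8 had the widest spread among them, with 5.91, 4.95 and 5.83 on modified PEEK. On pristine PEEK it had 5.40, 5.48 and 5.82, so its change of 0.00 has an interval from -0.57 to 0.57 and is poorly fixed.

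None of 7 members known from muscle, nerve or testis was called, beside 10.4% of all genes. Of the 7, 4 lay below background on all arrays. Those were Klhl1, Klhl14, Klhl31 and Kbtbd13, while Klhl40 lay above it on 3 arrays. Klhl10, a testis adaptor, had signals of 4.21 ± 0.08 on modified and 4.51 ± 0.21 on pristine PEEK (SD, n = 3; limma adjusted p = 0.197). Klhl41, a sarcomere-associated adaptor of muscle, had the largest negative change of any member. Its signals were 5.75, 5.08 and 5.48 on modified PEEK and 5.83, 6.16 and 5.97 on pristine PEEK. The groups were separated by only 0.08, and the change of -0.55 ± 0.17 (SE) missed the threshold (limma adjusted p = 0.094). It passed without modified PEEK replicate 1 (adjusted p = 0.0395), where the change was -0.70. It also passed with array weights, without the lowest 50% of genes and with an intensity trend, where its adjusted p was lowest (0.0206).

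Of the 17 members without an assigned role here, 2 were higher and 1 lower (17.6% called, beside 10.4% of all genes). Their median change was 0.12. Klhl33 is described above. Klhl5 had 8.36, 8.27 and 8.37 on modified PEEK and averaged 7.95 ± 0.05 on pristine PEEK (SD, n = 3). It rose by 0.39 ± 0.09 (SE; 1.31-fold, limma adjusted p = 0.0288), and by 0.64 when scaled to the spikes. Klhl26 had 6.03, 6.14 and 5.93 on modified PEEK, against 6.33, 6.51 and 6.48 on pristine PEEK. It fell by 0.41 (SE 0.10; limma adjusted p = 0.0404), a call lost when scaled to the spikes (change -0.16, adjusted p = 0.501). Neither gene's groups overlapped.

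The other 14 of them were not called and changed by -0.32 to 0.38. Klhl38 was nearest the threshold among these, at 4.79 ± 0.05 on modified and 4.41 ± 0.21 on pristine PEEK (SD, n = 3; limma adjusted p = 0.0947), and it passed when arrays were scaled to the spikes (adjusted p = 0.0491). Klhl8 (change 0.26, adjusted p = 0.149) and Klhl28 (change -0.32, adjusted p = 0.143) had groups that did not overlap. Klhl4, Klhl29, Klhl30, Klhl32 and Kbtbd12 lay below background on all 6 arrays. Klhl11, Klhl23, Klhl34, Klhl35, Klhl36 and Kbtbd3 had groups that overlapped.

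**Figure D3:**
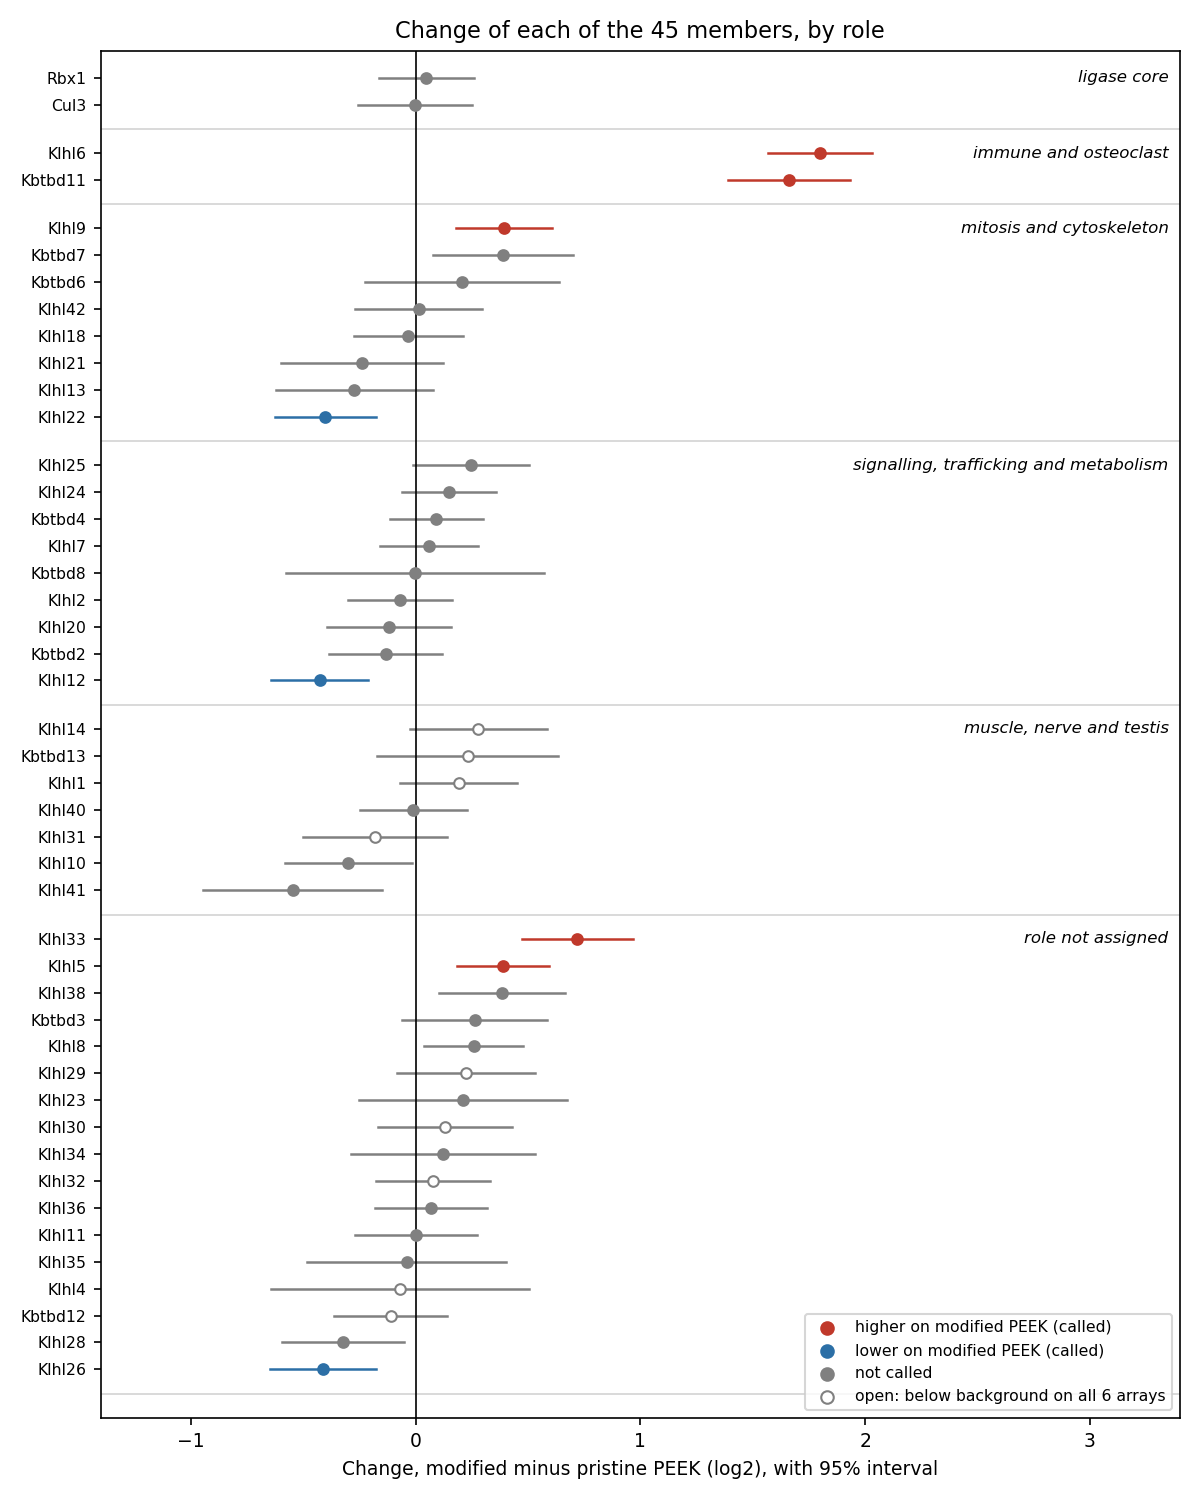
Change of each member (modified minus pristine PEEK, log2) with its 95% interval, grouped by role. Called members are red where higher and blue where lower, and open points lie below background on all 6 arrays. Klhl6 and Kbtbd11 are set apart, at 1.80 and 1.66, and every other interval ends below 1.

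Across the family, 32 members lay above background on all 6 arrays, 4 on some and 9 on none, and all 8 called members were among the 32. Over all genes, 12109 of 19505 lay above background on all 6 arrays, as did 1870 of the 2027 called. Of the 32 members 25% were called, beside 15.4% of the 12109 genes. Groups did not overlap for 14 members (31.1%), beside 28.8% of all genes. The 6 of these that were not called are Klhl8, Klhl10, Klhl24, Klhl28, Klhl38 and Klhl41. The changes of 26 members were positive and those of 19 negative, passed or not, beside 10077 positive and 9428 negative over all genes.

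The 5 smaller called changes, each between 1.31- and 1.34-fold, were close to the threshold. Klhl5, Klhl9, Klhl12 and Klhl26 kept their call without modified PEEK replicate 2 and lost it without any other single array. Their highest adjusted p was 0.116 for Klhl5, 0.138 for Klhl9 and 0.150 for Klhl26, each without pristine PEEK replicate 3, and 0.0954 for Klhl12, without pristine PEEK replicate 1. Klhl22 kept its call only without modified PEEK replicate 1 and reached 0.132 without pristine PEEK replicate 1. Scaled to the spikes, Klhl5 and Klhl9 stayed called. Relative to the median gene under that scaling the changes of Klhl12, Klhl22 and Klhl26 were -0.44, -0.41 and -0.42.

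**Figure D4:**
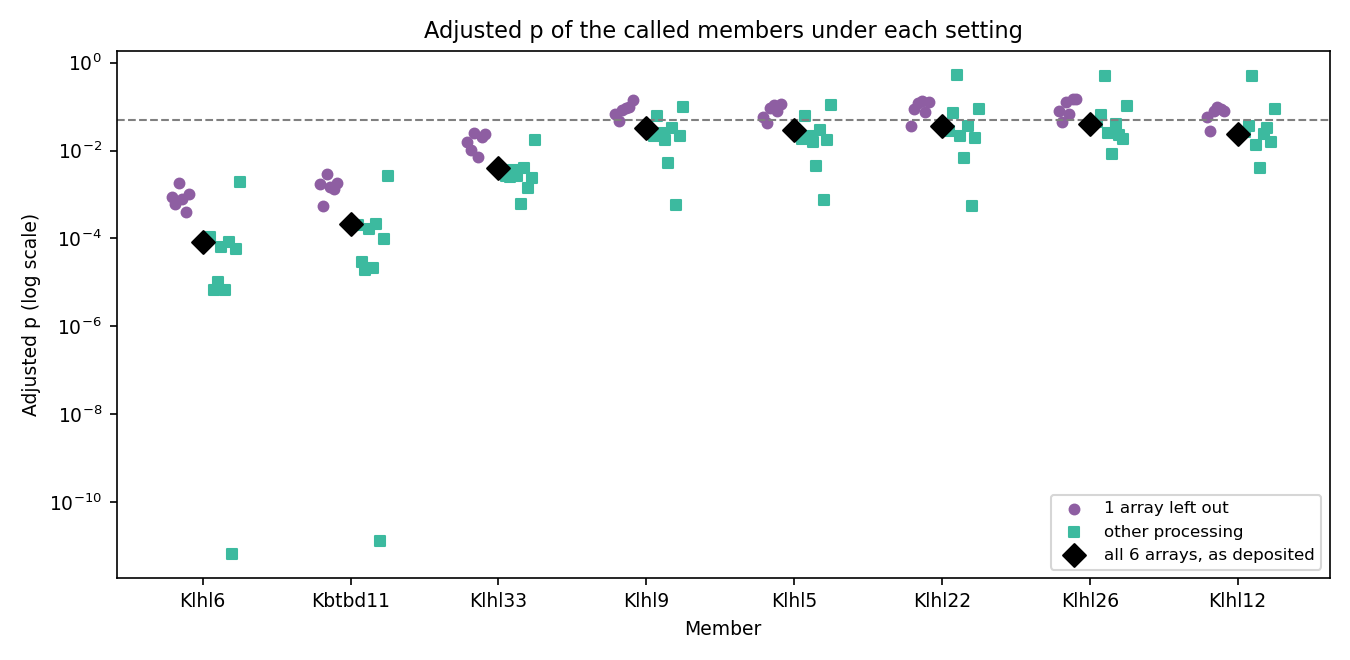
Adjusted p (log scale) of the 8 called members in the limma fit on all 6 arrays (diamonds), in the 6 fits with 1 array left out (circles) and in 9 other alternatives (squares), with the threshold of 0.05 dashed. Klhl6, Kbtbd11 and Klhl33 stay below the line throughout, and each of the other 5 has points on both sides.

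Promoters are shown for 2 rising members, Klhl6 and Klhl33, and 2 falling members, Klhl12 and Klhl22, so that the region before their starts can be compared. The RefSeq table (GRCm38.p6) held windows of 250 bases before to 50 after the start for 37 of the 45 members and for 7 of the 8 called. The windows are chr16:19983000-19983299 (minus strand) for Klhl6, chr14:50895303-50895602 (minus strand) for the start of Klhl33 that holds a searched motif, chr1:134455281-134455580 (plus strand) for Klhl12 and chr16:17759391-17759690 (plus strand) for 1 of 2 overlapping windows of Klhl22. Capitals mark any of 4 motifs searched on both strands. They are GAGGAA, found in sites for the macrophage factor PU.1, and the sequence of interferon-response elements (GAAA, any 2 bases and GAAA again). The others are TGACNNNGC of antioxidant response elements and TTTGAA of cell cycle promoters.
Klhl6: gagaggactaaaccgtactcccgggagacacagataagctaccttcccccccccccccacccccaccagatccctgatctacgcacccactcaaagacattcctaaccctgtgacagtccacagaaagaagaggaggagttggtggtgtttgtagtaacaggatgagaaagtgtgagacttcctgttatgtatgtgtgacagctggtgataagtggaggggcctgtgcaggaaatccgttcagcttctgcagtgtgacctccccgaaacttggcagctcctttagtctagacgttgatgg
Klhl33: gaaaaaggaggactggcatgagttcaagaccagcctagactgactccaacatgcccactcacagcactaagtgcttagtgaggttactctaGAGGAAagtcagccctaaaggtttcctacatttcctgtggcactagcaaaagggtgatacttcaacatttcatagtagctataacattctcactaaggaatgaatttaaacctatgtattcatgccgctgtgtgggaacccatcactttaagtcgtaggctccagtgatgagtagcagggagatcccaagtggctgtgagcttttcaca
Klhl12: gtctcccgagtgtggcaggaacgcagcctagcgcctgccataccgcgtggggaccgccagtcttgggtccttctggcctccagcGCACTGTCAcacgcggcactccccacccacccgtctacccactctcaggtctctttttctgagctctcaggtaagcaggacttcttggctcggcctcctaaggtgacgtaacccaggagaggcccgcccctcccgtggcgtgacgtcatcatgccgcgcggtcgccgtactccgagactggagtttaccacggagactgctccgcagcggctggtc
Klhl22: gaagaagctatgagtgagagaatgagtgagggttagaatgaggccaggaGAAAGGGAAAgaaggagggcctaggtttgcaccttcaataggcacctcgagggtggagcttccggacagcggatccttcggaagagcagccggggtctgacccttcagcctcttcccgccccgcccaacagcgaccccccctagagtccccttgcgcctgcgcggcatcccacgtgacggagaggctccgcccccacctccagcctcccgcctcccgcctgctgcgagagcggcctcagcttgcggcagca
The Klhl6 window held none of the 4 motifs as spelled here, and other forms of these sites were not searched. Klhl33 held GAGGAA, found in 28.3% of all 32851 promoter windows. Klhl12 held TGACNNNGC (12.4% of all windows) and Klhl22 held the interferon-response sequence (3.44%). Of the 49 windows of members, 12 held GAGGAA, 3 the interferon-response sequence, 8 TGACNNNGC and 7 TTTGAA, the last found in 17.9% of all windows. The 3 include both overlapping windows of Klhl22, which share 1 site that is thus counted in each. These matches are letters in a window and were not tested as binding sites.

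Keap1 and other BTB adaptors whose symbols fall outside the rule were set beside the members. Of 26 measured, 1 was higher and 3 lower (15.4% called, beside 10.4% of all genes), with a median change of -0.01. Keap1 averaged 7.13 ± 0.26 on modified and 6.86 ± 0.03 on pristine PEEK (SD, n = 3) and was not called (limma adjusted p = 0.302). Its substrate gene Nfe2l2, encoding NRF2, changed by 0.13 (limma adjusted p = 0.573). Ivns1abp, another kelch protein, rose to 8.91 ± 0.16 on modified PEEK, against 8.22 ± 0.07 on pristine PEEK (limma adjusted p = 0.0055). Kctd6 (-0.90), Kctd13 (-0.78), an adaptor for the GTPase RhoA, and Kctd21 (-0.66) fell. The 2 brightest genes that did not pass were Btbd1 (0.19) and Spop (-0.02). Without modified PEEK replicate 3 or pristine PEEK replicate 1 the call for Kctd6 was lost, with an adjusted p of up to 0.0734. Scaled to the spikes, Kctd6 (adjusted p = 0.0507), Kctd13 (adjusted p = 0.0516) and Kctd21 (adjusted p = 0.137) did not pass.

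The machinery that switches cullins on and off by attaching and removing NEDD8 had 2 of 24 genes called, both lower, a share of 8.33% beside 10.4% of all genes. Nae1, a subunit of the NEDD8-activating enzyme, fell by 0.40 (limma adjusted p = 0.0337). Dcun1d3, a cofactor of NEDD8 transfer, averaged 5.15 ± 0.41 on modified and 5.95 ± 0.08 on pristine PEEK (SD, n = 3; limma adjusted p = 0.0338). The signalosome genes Cops9 (0.06) and Cops7a (0.21), the brightest not to pass, were not called. The exchange factor gene Cand1 (0.36, limma adjusted p = 0.0678), named after its value was seen, was not called either. Cand1 passed in 4 of 15 alternatives, among them scaling to the spikes (change 0.61, limma adjusted p = 0.0448). Of 14 other cullins and partner subunits, 2 (14.3%) were lower: Cul2 (-0.40, adjusted p = 0.0326) and Cul7 (-0.73, adjusted p = 0.0338). Elob (-0.17) and Ddb1 (-0.01) were the brightest not to pass. The call was lost without modified PEEK replicate 3 or any pristine PEEK array for all 4 lower genes of both lists, without modified PEEK replicate 2 for Nae1 and Cul2, and without modified PEEK replicate 1 for Cul7. Their highest adjusted p in these fits was 0.142 for Nae1, 0.109 for Dcun1d3, 0.140 for Cul2 and 0.116 for Cul7. Scaled to the spikes none of the 4 passed (adjusted p = 0.491 for Nae1, 0.0779 for Dcun1d3, 0.492 for Cul2 and 0.178 for Cul7).

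Of 27 genes described as substrates of the adaptors, 6 were higher and 1 lower. That is 25.9%, beside 10.4% of all genes and 15.4% of those above background on all 6 arrays, where 25 of the 27 lay. The mitotic kinase genes led the rises. Plk1 averaged 9.64 ± 0.13 on modified and 8.35 ± 0.09 on pristine PEEK (SD, n = 3), a change of 1.30 (limma adjusted p = 0.000314). Aurkb rose by 1.18 and Aurka by 0.93. The others that passed as higher were Dapk1 (0.62, adjusted p = 0.0041), Pik3r1 (0.45, adjusted p = 0.0299) and Nolc1 (0.35, adjusted p = 0.0393), targets of Klhl20, Kbtbd2 and Kbtbd8 that were named after their values were seen. Pik3r1 lost its call in 4 of the 6 fits with 1 array left out, those without replicate 1 or 3 on modified PEEK or replicate 1 or 2 on pristine PEEK (highest adjusted p 0.113). Nolc1 lost it in all 6 (highest adjusted p 0.135). Eif4ebp1, the translation repressor reached by Klhl25, fell by 0.73 on the log2 scale (limma adjusted p = 0.00133), a call lost when arrays were scaled to the spikes (adjusted p = 0.0735). Wnk1 (0.09) and Sec31a (-0.29) were the brightest not to pass. Klhl22 RNA was lower and Plk1 RNA higher, while Klhl9 and Aurkb RNA were both higher. Klhl12 RNA was lower, and that of its target Sec31a was not called. Depdc5, also a target of Klhl22 and named after its value was seen, changed by 0.37 and was not called (limma adjusted p = 0.0565). The target of Klhl6 included here was Rc3h2, likewise named after its value was seen. It averaged 8.17 ± 0.05 on modified and 8.36 ± 0.02 on pristine PEEK (limma adjusted p = 0.238). The arrays measure RNA, and the action of an adaptor on a substrate protein was not measured. Plk1, Aurkb and Aurka are genes of dividing cells and moved in the same arrays as Klhl9 and Klhl22. Their part in those changes was not tested.

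**Figure D5:**
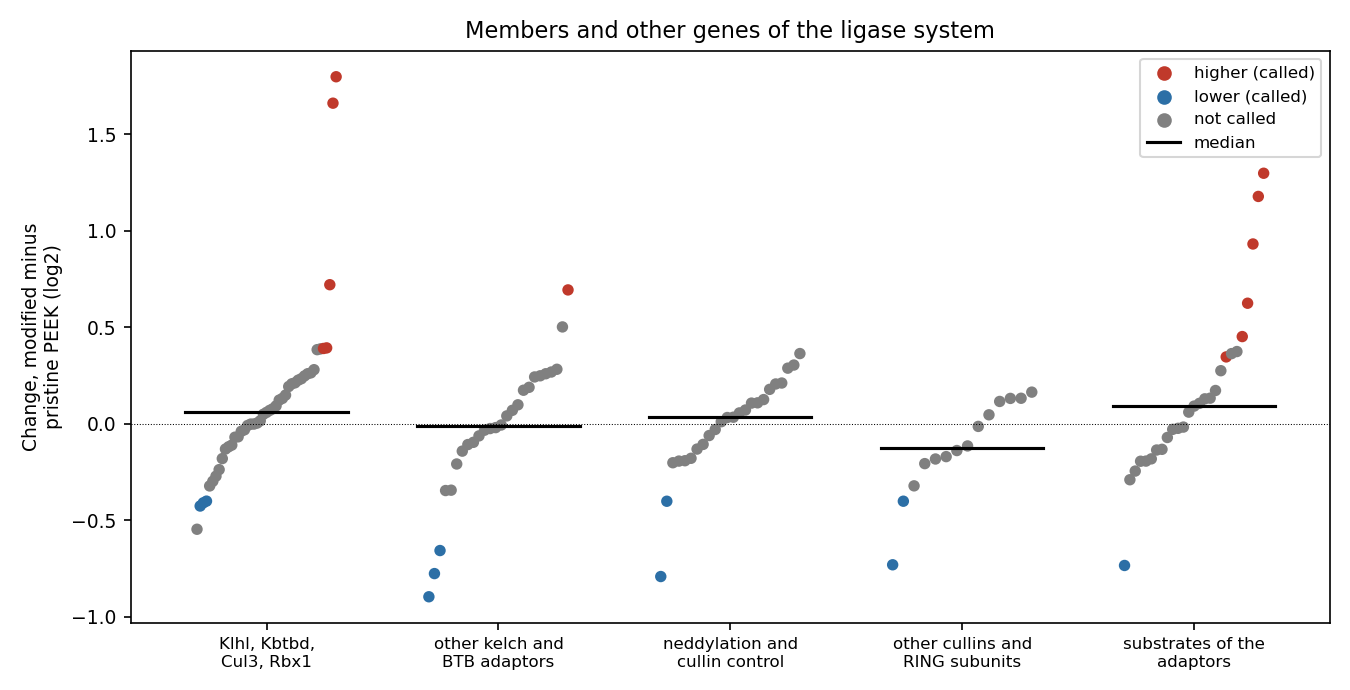
Change (modified minus pristine PEEK, log2) of each gene, sorted within the 45 members and 4 lists of other genes of the ligase system, with the median as a line. Red points were called higher and blue points lower. Every change above that of Ivns1abp (0.69) lies among the members or the substrates, and the list medians lie between -0.13 and 0.09.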

How the data were processed

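The values are log2 signals per probe set for 6 arrays, used as the authors deposited them; the submitters' processing notes name RMA but give neither its version nor its role, and the scale was taken to be log2 from their range (0.941 to 12.4). RMA commonly includes quantile normalization, which would hide a change in total RNA per cell where it was applied. Labelled cDNA was made from 250 ng of total RNA, per the labels' protocols. Of 29129 features, 19572 probe sets carried 1 gene name, and 1 probe set per gene, that of highest mean signal, left 19505 genes. There were 0 per-sample columns left unused. No genome build is given for the files in the sources used, and only the RefSeq promoter windows carry coordinates.

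The comparison used limma's lmFit and eBayes (version 3.58.1, under R 4.3.3; two-sided, no covariate, no filter on dim probes), with Benjamini-Hochberg adjustment over all genes. The test was checked on simulated data. Changes are modified minus pristine PEEK on the log2 scale, and the number of arrays limits their precision. Named members were those called, the core genes, those above background with a change of at least 0.5, and those with the 3 highest probe set signals, which do not rank levels between genes; from each list of other genes, the largest 4 called and the 2 brightest not called, with Keap1 and Nfe2l2. Members, roles and lists were chosen with earlier results of these data known. Probes shared between similar adaptors were not checked. Alternatives were further normalizations, scaling to 24 poly-A spike probe sets, filters on dim genes, the mean of probe sets, an intensity trend, array weights, a replicate block and leaving out each array.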

Additional observations from a re-analysis of the deposited data

How the results depend on the processing

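Klhl6, Kbtbd11 and Klhl33 kept their direction and call in all 15 alternatives, and no named gene passed with its direction turned. Centring array medians left 4 members called (8.89%, beside 8.84% of all genes), 3 higher and 1 lower. Scaled to the poly-A spikes, 0 members were lower, the members' median change was 0.31, and over all genes 1575 were higher and 290 lower. An intensity trend gave 3305 genes, 1586 higher and 1719 lower. Without the lowest 50% of genes by signal, 9753 genes and 27 members were tested, a filter that leaves fewer genes to adjust over. Of these, 1521 genes and 5 members were lower, and 30.6% of the genes and 40.7% of the members passed in either direction. With the replicate number as a block, 1268 genes passed, 646 higher and 622 lower, and 3 members, 3 higher and 0 lower (5 lower at an unadjusted p under 0.05 by limma). Arrays with the same number did not deviate together (correlations of -0.17, -0.16 and 0.07), so the numbers were not taken as pairs. Leaving out 1 array gave 1142 to 1863 genes, 594 to 903 higher and 548 to 1048 lower, and 3 to 7 members, 3 to 5 higher and 0 to 2 lower, with a members' median of 0.04 to 0.09. Such fits have fewer samples. The cause of these differences was not tested. For the 9 members below background on all arrays, no change could be measured reliably.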

Other observations

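Adaptor families of other cullins, and the Kctd BTB proteins, were counted on the same arrays, as a description. Of 76 F-box genes, whose products serve cullin 1, 2 were higher and 1 lower on modified PEEK: Fbxo48 (1.25, above background on 4 of 6 arrays), Fbxo5 (1.17), which encodes the mitotic inhibitor Emi1, and Fbxl2 (-0.68). Of 18 Asb genes of cullin 5, Asb10 was higher (0.65), and of 15 Dcaf genes of cullin 4, Dcaf6 was lower (-0.52). The median change was 0.01, 0.04 and 0.06 in these 3 families, beside 0.06 for the kelch and BTB members. Of 19 Kctd genes, the 3 named above were lower, and the median change of the 19 was -0.09. Called genes made up 3.95% of F-box, 5.56% of Asb, 6.67% of Dcaf and 15.8% of Kctd genes, beside 10.4% of all genes, and the differences between families were not tested.

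The genes next to the called members on the chromosome, by RefSeq's order (GRCm38.p6), were also counted as a description. Of 16 neighbours, 14 were measured and 1 of the 14 was called, beside 10.4% of all genes. Osgep, beside Klhl33, was the one called, and averaged 7.60 on modified and 7.14 on pristine PEEK (change 0.46, limma adjusted p = 0.0169). Beside Klhl6, Klhl24 changed by 0.15 and B3gnt5 by 0.27, and beside Kbtbd11, Arhgef10 changed by -0.17 and Myom2 by 0.05.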
